A study of Homo sapiens with 6 samples.

Results

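A set of 52 interferon-stimulated genes was followed in A498 cells, a human line from a clear cell kidney carcinoma, after knockdown of PTPRZ1, which encodes a receptor protein tyrosine phosphatase. The members are antiviral effectors, RNA sensors, and STAT and IRF transcription factors that interferon induces. They were taken by symbol from the 61860 genes of the deposited count table, and all 52 were found and had enough counts to be tested. The 6 RNA sequencing libraries form 2 groups of 3. The controls, labelled PTPRZ-nc, are described as the control group for the PTPRZ1 knockdown, made with a plasmid, and the knockdown libraries, labelled PTPRZ-Si, as made with siRNA. Both groups carry the same treatment label, transfection infection, and the labels name no added interferon. A difference between the groups therefore cannot be told apart from a difference between the plasmid and the siRNA. The replicates are not said to come from separate cultures, so the p-values describe the spread between libraries, which may be technical.

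Interferons are secreted proteins by which cells warn each other of infection. Type I interferon binds the receptor chains IFNAR1 and IFNAR2, the kinases JAK1 and TYK2 phosphorylate STAT proteins such as STAT2, and these join IRF9 in a factor that binds a promoter element called ISRE. Type II interferon signals through IFNGR1 and IFNGR2, and its response acts through an element called GAS. The induced genes include sensors of foreign RNA, nucleases and their activators, and proteins that block viral entry or translation, and many tumour cells keep part of this program active without added interferon.

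Many members share the ISRE in their promoters. No sequence was used to choose them, but they were chosen as genes that interferon induces, so this share is not independent of the choice. RefSeq promoters (GRCh38.p14), each with 250 bases before and 50 after a start site, were on hand for 44 members. The ISRE core was searched as GAAANNGAAA and, for the other strand, TTTCNNTTTC. It was found for 29 of 44 members (65.9%), against 431 of 11057 tested genes (3.9%) and 1195 of all 27305 genes with such a promoter (4.38%). GBP2, IFIT2, IFITM2, IRF7, MX2, OAS2, OASL and USP18 had no promoter on hand. Each sequence that follows is 30 bases on the strand of its gene, with a match to the ISRE core in capitals. In ISG15 another match overlaps the marked one and begins in the lower-case letters before it. The sequences show the element in 6 members that fell in the knockdown and then in 2 that did not pass the test.
OAS3 (chr12:112938321-112938350, plus strand): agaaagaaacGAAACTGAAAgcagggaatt
IFIT1 (chr10:89392497-89392526, plus strand): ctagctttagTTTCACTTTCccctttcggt
ISG15 (chr1:1013380-1013409, plus strand): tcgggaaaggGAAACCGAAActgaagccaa
DDX60L (chr4:168480523-168480552, minus strand): gtggagaaaaGAAACCGAAActaactccct
GBP1 (chr1:89065316-89065345, minus strand): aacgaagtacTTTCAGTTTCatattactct
PARP9 (chr3:122564322-122564351, minus strand): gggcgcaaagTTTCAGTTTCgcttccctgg
RSAD2 (chr2:6877622-6877651, plus strand): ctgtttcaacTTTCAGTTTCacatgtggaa
CXCL10 (chr4:76023699-76023728, minus strand): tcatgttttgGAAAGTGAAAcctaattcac
The element was in the promoters of 23 of 33 members that fell (69.7%) and of 6 of 10 that did not pass (60%), and UBE2L6, the member that rose, had none. The element was thus found both among members that fell and among those that did not. The GAS core, TTCNNNGAA, which reads the same on both strands, was found for 11 of 44 members (25%) and for 927 of 11057 tested genes (8.38%). It was found for 6 of 33 members that fell (18.2%) and 5 of 10 that did not pass (50%). A match to these letters is a description of the window and not evidence of binding.

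Levels are given in CPM, the count of a gene in each 1000000 counts of a library after TMM scaling. Groups were compared with edgeR's quasi-likelihood test, adjusted by Benjamini-Hochberg over all 15476 tested genes, and a gene is said to fall or rise where the adjusted p was at most 0.05. Fold changes are knockdown over control. Totals ran from 13726908 to 21469746 counts per library. Control 2 stood furthest from the other controls (chi-square per degree of freedom of 4.85 and 5.71 in its pairs, against 2.57 for controls 1 and 3, and 2.15 to 3.27 for the knockdown pairs). PTPRZ1 had 0 counts in all 6 libraries, which allows up to 0.0607 CPM over the 3 controls together for counting error, so the knockdown could not be checked by its target and directions rest on the labels. RNF26, the ubiquitin ligase named in the series title, went from 48.9 ± 0.94 to 41 ± 3.55 CPM (SD, n = 3 each; log2 fold change -0.25, edgeR adjusted p = 0.0128). Of 7 renal line markers, 6 were at 73.9 CPM or more in the controls and the hypoxia target CA9 was at 2.99 CPM. Several of them changed by amounts like those of the members or larger: PAX8 was 1.77-fold and CDH6 2.08-fold higher, VIM fell by 0.58 on the log2 scale, KRT8 and KRT18 were 1.10-fold and 1.13-fold higher, and NNMT and CA9 did not pass. The 10 leukocyte markers summed to 2.34 to 3.27 CPM in the controls and 2.11 to 2.75 CPM in the knockdown, with PTPRC, CD3E, MS4A1 and HLA-DRA at 0. The 6 fibroblast markers summed to 31.2 to 41.2 CPM in the controls and 21.2 to 23.7 CPM in the knockdown, nearly all of it COL1A1, with LUM at 0 and the other 4 at 4 counts or fewer. The 4 endothelial markers summed to 0.933 to 1.09 and 1.40 to 1.63 CPM, with CDH5 at 0. The part of these markers in the results was not tested. Fewer cells of a kind and less RNA per cell cannot be told apart in such bulk libraries.

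The knockdown libraries held less RNA of most members, by less than 2-fold each. Of the 52 members 36 fell, 1 rose and 15 did not pass. Of all tested genes 13.4% fell, 14% rose and 27.4% changed in either direction. The members were chosen with earlier results of these data known, so their share is not that of an independent list. The median log2 fold change of the members was -0.29, against 0.00 for all tested genes, and single members ran from -0.86 for CMPK2 to 0.37 for CXCL10. Together the members summed to 10333, 10408 and 10312 CPM in controls 1, 2 and 3 and to 8384, 8393 and 8421 CPM in the knockdown libraries, so the summed level was lower in each knockdown library than in any control. Every knockdown library lay below every control for 36 members, against 20% of all tested genes, and above every control for UBE2L6 and RSAD2, against 20.8%. Among the 36 that fell, changes ran from 1.10-fold for TRIM25 to 1.82-fold for CMPK2. A fall of 1.5-fold or more was seen for 9 members (CMPK2, GBP1, OAS2, OAS3, MX1, DDX60L, TRIM21, MX2 and IFIT1), and for 1.78% of all tested genes. Over the 52 members, Spearman's rho between control level per kilobase of exon and log2 fold change was -0.112, a description over genes that share the same libraries.

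**Figure D1:**
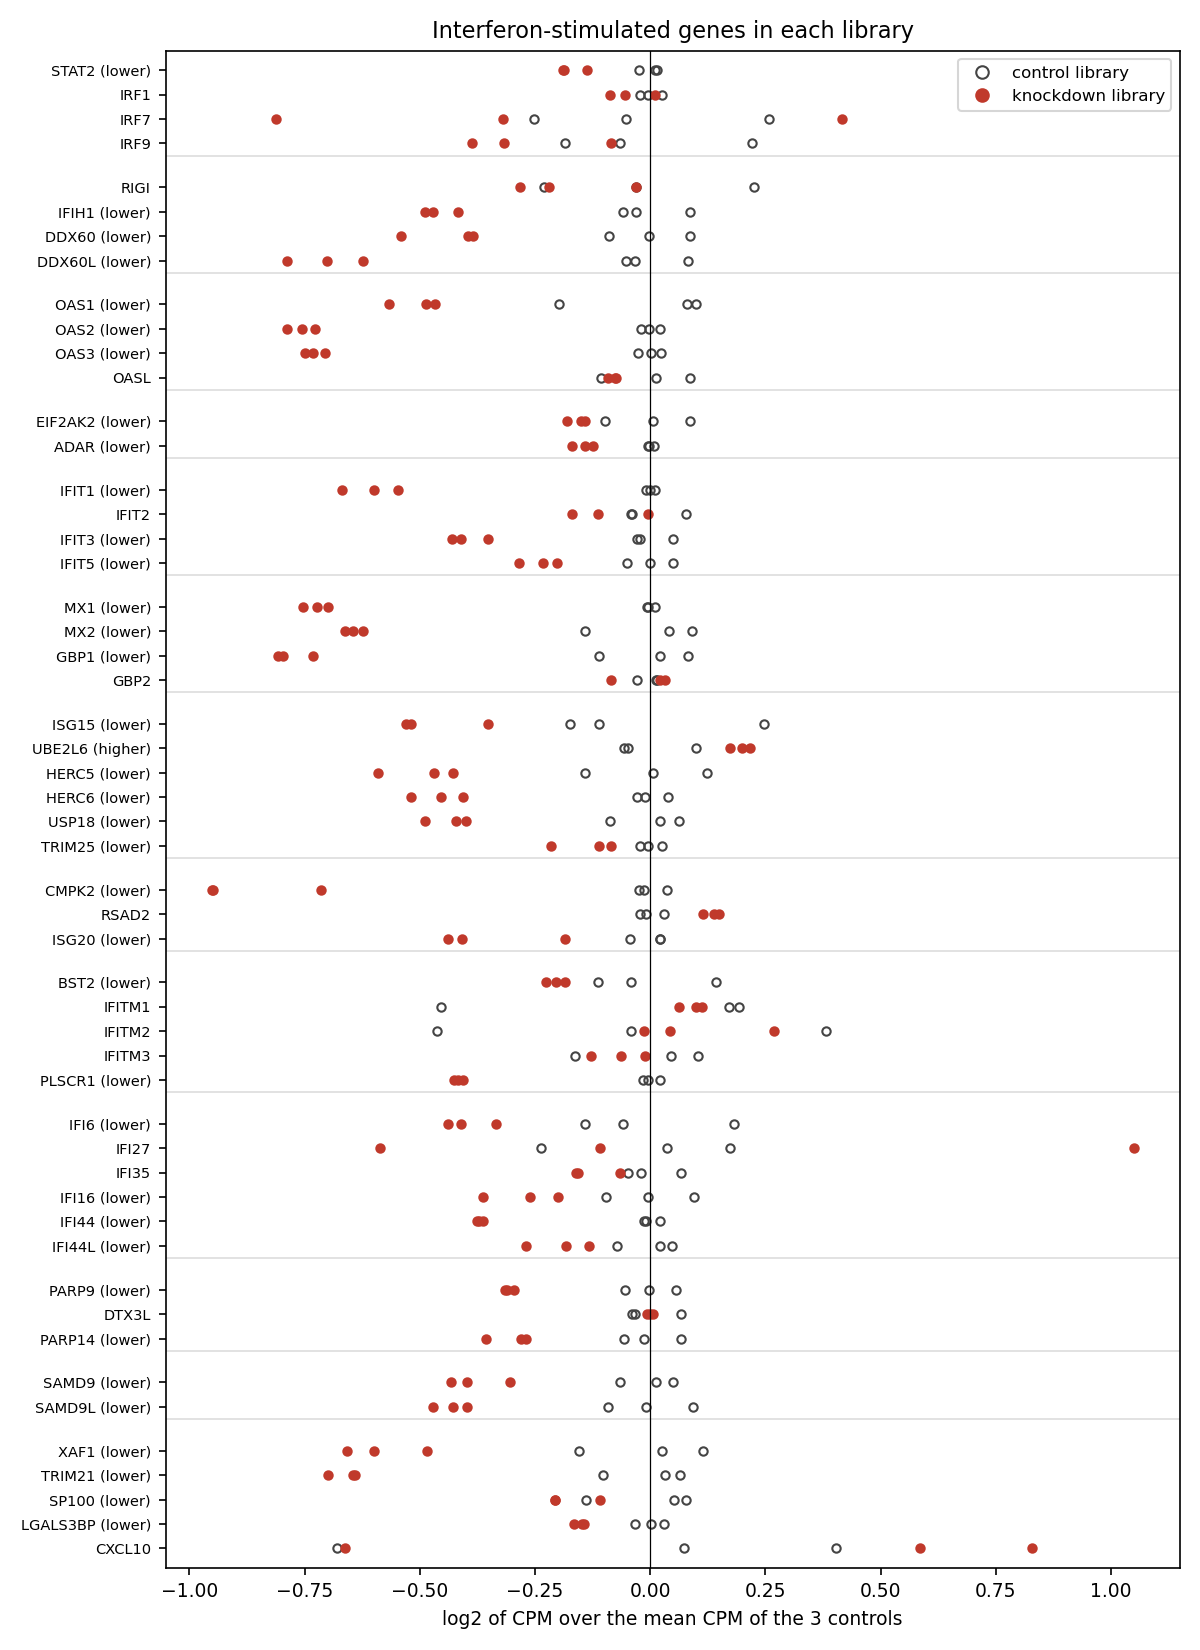
Level of each of the 52 members in each library, as log2 of its CPM over the mean of the 3 controls (x axis), with members grouped by role (y axis); open points are controls, filled points are knockdown libraries, and the words after a symbol give the test's call. For 36 members all filled points lie left of all open points, and CMPK2, GBP1, OAS2, OAS3 and MX1 lie furthest left among members with tight groups.

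**Figure D2:**
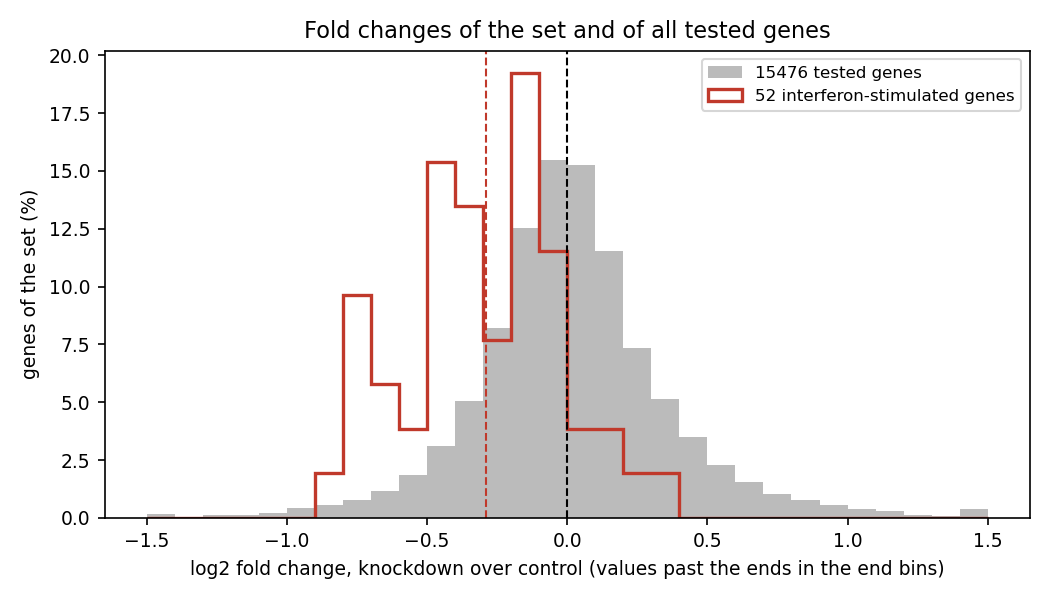
Distribution of log2 fold changes (x axis, bins of 0.1) as a percentage of each set (y axis), for the 15476 tested genes (grey) and the 52 interferon-stimulated genes (red line), with dashed lines at the medians of 0.00 and -0.29. The red line is shifted to lower values, and no member lies beyond -0.9 or 0.4.

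Of the 4 transcription factors among the members, STAT2 alone passed the test, a share of 25% that is close to the 27.4% of all tested genes. STAT2, a subunit of the ISRE-binding factor, was at 154, 154 and 150.4 CPM in controls 1, 2 and 3 and at 139, 134 and 134 CPM in the knockdown libraries, a small fall without overlap (log2 fold change -0.17, SE 0.0437, edgeR adjusted p = 0.00727). IRF9, its DNA-binding partner, was counted 68, 72 and 81 times in the controls and 52, 72 and 91 times in the knockdown and did not pass (edgeR adjusted p = 0.368). The counts of IRF9 are uncertain, because 48.4% of its exon bases in GENCODE 29 are shared with an overlapping gene and reads in both are left out. IRF1, a factor of the response to type II interferon, lay at 66 ± 1.09 and 64 ± 2.24 CPM (SD, n = 3 each) and did not pass (edgeR adjusted p = 0.62). In GENCODE 29, 22% of the exon bases of IRF1 are shared with a gene on the opposite strand. IRF7, which amplifies interferon production, was counted 89, 62 and 121 times in the controls and 62, 64 and 154 times in the knockdown, and in CPM knockdown libraries 1 and 3 differed more from each other than the groups did.

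Of the 4 members grouped here as RNA sensors, IFIH1, DDX60 and DDX60L fell, and RIGI was barely counted. The share that fell was 75%, beside 13.4% of all tested genes. IFIH1, the sensor MDA5 of long double-stranded RNA (ENSG00000115267, GRCh38 chr2:162267079-162318703, minus strand), was at 95.5, 93.6 and 104 CPM in the controls and at 70.3, 69.6 and 73 CPM in the knockdown, 1.38-fold lower. DDX60L, a helicase-like protein, went from 68.7, 75.4 and 69.7 to 43.8, 46.2 and 41.3 CPM and was 1.63-fold lower (log2 fold change -0.70, SE 0.0631, edgeR adjusted p = 3.15e-07). Its neighbour DDX60 was 1.36-fold lower. The groups did not overlap for any of these 3 genes. RIGI, the sensor of RNA with a triphosphate end, was counted 44, 42 and 42 times in the controls and 31, 47 and 55 times in the knockdown, and its change (-0.16, SE 0.232) could not be told from 0.

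OAS3 had the smallest p of all members. These enzymes bind double-stranded RNA and make short oligoadenylates that set off the decay of RNA. OAS3 (ENSG00000111331, GRCh38 chr12:112938352-112973249, plus strand) was at 691, 702 and 678 CPM in the controls and at 423, 411 and 415 CPM in the knockdown, 1.66-fold lower (edgeR adjusted p = 2.95e-10). OAS2 went from 441, 447 and 454 to 265, 269.9 and 259 CPM, 1.69-fold lower, and only 1.86% of all tested genes had a lower log2 fold change. By p, OAS3 ranked 17 and OAS2 ranked 22 among the 15476 tested genes, and MX1 lay between them at 19. OAS1 fell from 195, 158 and 192 to 129.7, 132 and 123 CPM, with control 2 the lowest of the controls and still above the knockdown. OASL, a relative that makes no oligoadenylates and lies apart from the other 3 on the same chromosome, was at 66.9, 63.6 and 58.6 CPM in the controls and at 59.8, 59.2 and 59.9 CPM in the knockdown and did not pass (log2 fold change -0.08, SE 0.0598).

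EIF2AK2 and ADAR, which also bind double-stranded RNA, fell by 0.16 and 0.15 on the log2 scale. EIF2AK2, the kinase PKR that shuts down translation, was at 309, 287 and 326 CPM in the controls and 271, 278 and 277 CPM in the knockdown (-0.16, edgeR adjusted p = 0.0166). It did not pass without control 1 (edgeR adjusted p = 0.0502), control 3 (0.0832), knockdown 1 (0.0796) or knockdown 3 (0.0529). ADAR, which edits adenosine to inosine in double-stranded RNA, fell from 954 ± 4.57 to 862 ± 13.9 CPM (SD, n = 3 each), 1.11-fold.

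The IFIT proteins bind viral RNA and hold back its translation, and the 4 members lie in 1 cluster on chromosome 10. IFIT1 (ENSG00000185745, GRCh38 chr10:89392546-89406486, plus strand) was at 117, 118 and 116 CPM in the controls and 79.9, 77.1 and 73.4 CPM in the knockdown, 1.52-fold lower (edgeR adjusted p = 1.12e-07). IFIT3, which stabilises IFIT1 on RNA, fell from 127, 127 and 134 to 95.8, 101 and 97 CPM, and IFIT5 by 1.18-fold. IFIT2 was at 56.3, 51.8 and 51.9 CPM in the controls and at 49.3, 53.2 and 47.4 CPM in the knockdown, so its groups overlapped and it did not pass (log2 fold change -0.09, SE 0.0645).

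Of the GTPases of the MX and GBP families, both MX members and GBP1 fell and GBP2 did not pass. MX1 (ENSG00000157601, GRCh38 chr21:41420304-41459214, plus strand), which traps viral nucleocapsids, went from 606, 608 and 614 to 369, 361 and 375 CPM, 1.65-fold lower (log2 fold change -0.73, SE 0.0361, edgeR adjusted p = 3.23e-10). MX2 had only 364 counts in all, 66, 62 and 82 among the controls and 39, 56 and 59 among the knockdown libraries, and fell 1.56-fold. The call for MX2 was lost without control 3, knockdown 2 or knockdown 3 (edgeR adjusted p = 0.0537, 0.0524 and 0.0532). GBP1, a guanylate-binding protein that coats intracellular bacteria, went from 78.4, 75.1 and 68.6 to 42.7, 44.6 and 42.3 CPM, 1.71-fold lower (edgeR adjusted p = 9.30e-08). GBP2, next to it on chromosome 1, was at 17.1, 17.7 and 17.7 CPM in the controls and 17.7, 16.5 and 17.9 CPM in the knockdown and did not pass (edgeR adjusted p = 0.945). GBP genes are close in sequence, so their counts are uncertain.

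**Figure D3:**
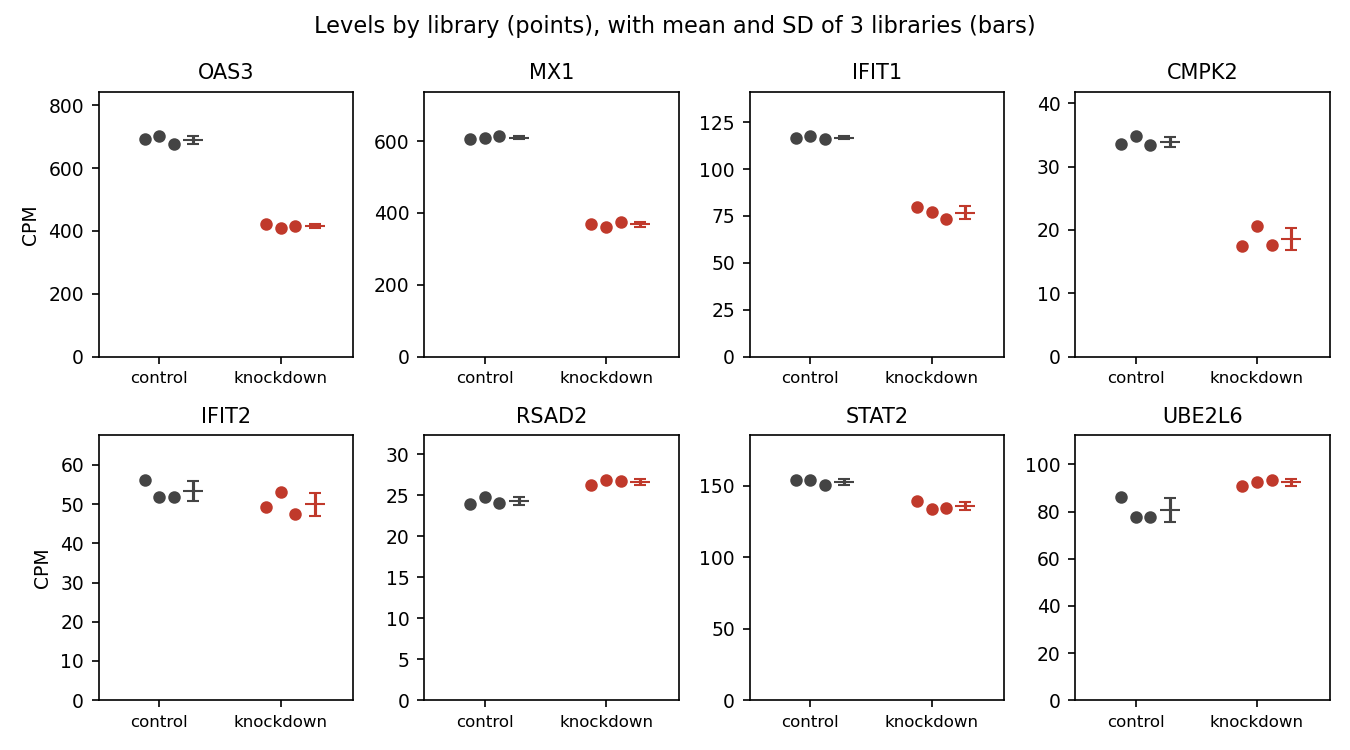
CPM (y axis, from 0) of 8 members in each control and knockdown library (points), with the mean and SD of the 3 libraries beside them (bars). OAS3, MX1, IFIT1 and CMPK2 in the top row have clear gaps between groups, while in the bottom row IFIT2 overlaps, RSAD2 and UBE2L6 lie higher in the knockdown, and STAT2 lies slightly lower.

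ISG15 is a ubiquitin-like protein that is joined to other proteins through UBE2L6, its E2 enzyme, and ligases such as HERC5, and USP18 removes it. ISG15 itself was at 189, 242 and 181 CPM in the controls and 142, 159.9 and 141 CPM in the knockdown, lower by 1.38-fold with control 2 highest. HERC5 fell from 63.6, 76.4 and 70.4 to 46.6, 50.6 and 52.2 CPM, its relative HERC6 1.38-fold, and USP18, which also dampens signalling at IFNAR2, from 39.4, 40.6 and 36.6 to 29.4, 27.7 and 29 CPM. UBE2L6 went the other way. It was at 86.3, 77.8 and 77.5 CPM in the controls and 90.9, 92.5 and 93.5 CPM in the knockdown, a rise of 1.15-fold without overlap (log2 fold change 0.20, SE 0.054, edgeR adjusted p = 0.0114). It was the only one of the 52 members that rose, and the call was lost without control 3 (edgeR adjusted p = 0.0528) or knockdown 3 (edgeR adjusted p = 0.0592). TRIM25, a ligase that acts on RIGI, fell 1.1-fold and lost its call without control 3, knockdown 1 or knockdown 2 (edgeR adjusted p = 0.0692, 0.0556 and 0.135).

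CMPK2 and RSAD2 are neighbours on chromosome 2 that are read in opposite directions and act in a common pathway. CMPK2 is a mitochondrial nucleotide kinase, and RSAD2, viperin, turns its product into a nucleotide that stops viral RNA chains. CMPK2 (ENSG00000134326, GRCh38 chr2:6840570-6866635, minus strand) was at 33.6, 34.8 and 33.3 CPM in the controls and 17.5, 20.7 and 17.6 CPM in the knockdown, the largest change of any member (log2 fold change -0.86, SE 0.0819, edgeR adjusted p = 5.78e-07). RSAD2 was at 23.9, 24.8 and 24.1 CPM in the controls and 26.3, 26.9 and 26.7 CPM in the knockdown, higher in each knockdown library but not past the test (log2 fold change 0.14, SE 0.0727, edgeR adjusted p = 0.184). Their exons share 14 bases in GENCODE 29, and the counting did not use strand. ISG20, an exonuclease, fell 1.27-fold on 1394 counts, and lost its call without control 1, knockdown 2 or knockdown 3 (edgeR adjusted p = 0.0622, 0.0845 and 0.0793).

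Membrane proteins that stop viruses at entry or release were divided. PLSCR1, a scramblase of the plasma membrane, went from 157, 156 and 159 to 118, 119 and 117 CPM, 1.33-fold lower. BST2, tetherin, which holds budding virus at the surface, was at 388, 441 and 369 CPM in the controls and 346, 342 and 351 CPM in the knockdown, 1.15-fold lower. The IFITM proteins, which hinder membrane fusion, did not pass, with log2 fold changes of 0.08 for IFITM1, 0.09 for IFITM2 and -0.07 for IFITM3. Control 2 stood apart for IFITM1, at 75.2, 48 and 74.1 CPM in controls 1, 2 and 3 against 70.4, 68.7 and 71.1 CPM in the knockdown. Without control 2, IFITM3 passed as lower (log2 fold change -0.14, edgeR adjusted p = 0.00399). It also did so without both libraries numbered 2 (-0.17, edgeR adjusted p = 0.000332), a setting chosen after seeing the data. Across the alternative settings IFITM1 ran from -0.09 to 0.18 and IFITM2 from -0.08 to 0.33, so their signs were not stable. IFITM1 and IFITM2 share 351 exon bases in GENCODE 29, and 21.3% of those of IFITM3 are shared with a gene on the opposite strand. The family is also near-identical in sequence, so counts of these 3 genes are uncertain.

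Per kilobase of exon, IFI6, an inhibitor of apoptosis, had the highest control level of all members at 587 CPM per kilobase, followed by LGALS3BP at 548 and BST2 at 357. IFI6 was at 487, 576 and 459.8 CPM in the controls and 374, 382 and 402 CPM in the knockdown, 1.31-fold lower. IFI44 fell from 147, 149.9 and 146 to 114, 114 and 115 CPM and its neighbour IFI44L 1.14-fold. IFI16, a sensor of DNA, fell from 214, 200.3 and 229 to 186, 179 and 167 CPM. IFI35 lay at 98.8, 107 and 101 CPM in the controls and 97.6, 91.7 and 91.4 CPM in the knockdown, which did not overlap, yet did not pass (edgeR adjusted p = 0.0777). IFI27 was counted 186, 123 and 224 times in the controls and 141, 147 and 469 times in the knockdown, with knockdown 3 alone above the rest, and its log2 fold change of 0.30 (SE 0.277) turned to -0.36 without that library.

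PARP9 and DTX3L form a complex that modifies histones and ubiquitin, and their genes are read in opposite directions from a common promoter. The ISRE core printed for PARP9 lies at the same bases in the promoter of DTX3L. PARP9 (ENSG00000138496, GRCh38 chr3:122527924-122564577, minus strand) went from 105, 101 and 109.6 to 85, 86 and 84.7 CPM, 1.24-fold lower (edgeR adjusted p = 0.000159). DTX3L was at 134, 134 and 144 CPM in the controls and 136, 137 and 138 CPM in the knockdown, all within the range of the controls, and did not pass (edgeR adjusted p = 0.99). PARP14, a mono-ADP-ribosyltransferase further along the chromosome, fell 1.23-fold. PARP9 and DTX3L share 217 exon bases in GENCODE 29, and read pairs that overlap both are not counted for either.

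SAMD9 and SAMD9L, neighbours on chromosome 7 that restrict poxviruses and hold back growth, fell by like amounts, 1.3-fold and 1.35-fold. XAF1, a promoter of apoptosis, was at 63.1, 67.1 and 55.6 CPM in the controls and 40.9, 39.3 and 44.3 CPM in the knockdown (-0.57, edgeR adjusted p = 1.74e-05). In GENCODE 29, 38.3% of its exon bases are shared with a gene on the opposite strand. TRIM21, which binds antibody-coated virus in the cytosol, went from 43.6, 44.6 and 39.7 to 27.3, 26.3 and 27.3 CPM, 1.58-fold lower (edgeR adjusted p = 2.21e-06). SP100, a protein of nuclear bodies, was at 148, 129 and 150.3 CPM in the controls and 132, 123 and 123 CPM in the knockdown, where control 2 lay within the range of the knockdown, and 4 of the 6 fits that leave out 1 library lost its call. LGALS3BP, a secreted glycoprotein and the most counted member, fell 1.11-fold from 1964 ± 42.6 to 1767 ± 13.4 CPM (SD, n = 3 each). CXCL10, a chemokine that attracts activated T cells, was counted 13, 22 and 24 times in the controls and 31, 16 and 39 times in the knockdown. These counts were too few to place its change of 0.37 (SE 0.39).

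Next to each other on a chromosome, at most 105 kilobases apart, lay 16 pairs of members. In 9 pairs both were called lower, in 2 neither passed, and in 5 only 1 was called. Some pairs share a member, and 69.2% of all 52 members were called lower, beside 13.4% of all tested genes. Whether neighbours changed together more than other members was not tested. For 5 pairs of related or neighbouring members with unlike outcomes, chosen after their values were seen, ratios of counts within a library, which do not depend on scaling, give the size of the difference. The CMPK2 to RSAD2 ratio was 1.41, 1.4 and 1.38 in controls 1, 2 and 3 and 0.667, 0.767 and 0.657 in the knockdown, a difference of -1.01 on the log2 scale. For PARP9 over DTX3L the ratios were 0.784, 0.76 and 0.763 among controls and 0.623, 0.627 and 0.615 among knockdown libraries (-0.31). IFIT1 over IFIT2 gave 2.07, 2.27 and 2.23 among controls, against 1.62, 1.45 and 1.55 after knockdown (-0.51). OAS2 over OASL differed by -0.68, and GBP1 over GBP2 by -0.77. In all 5 pairs every knockdown ratio lay below every control ratio, an outcome that the choice of pairs favoured, so it is a description only. With 3 libraries against 3, the 2-sided exact permutation test gives p = 0.1 for each of the 5 pairs. That is the smallest p it allows, so it could not pass for any pair.

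**Figure D4:**
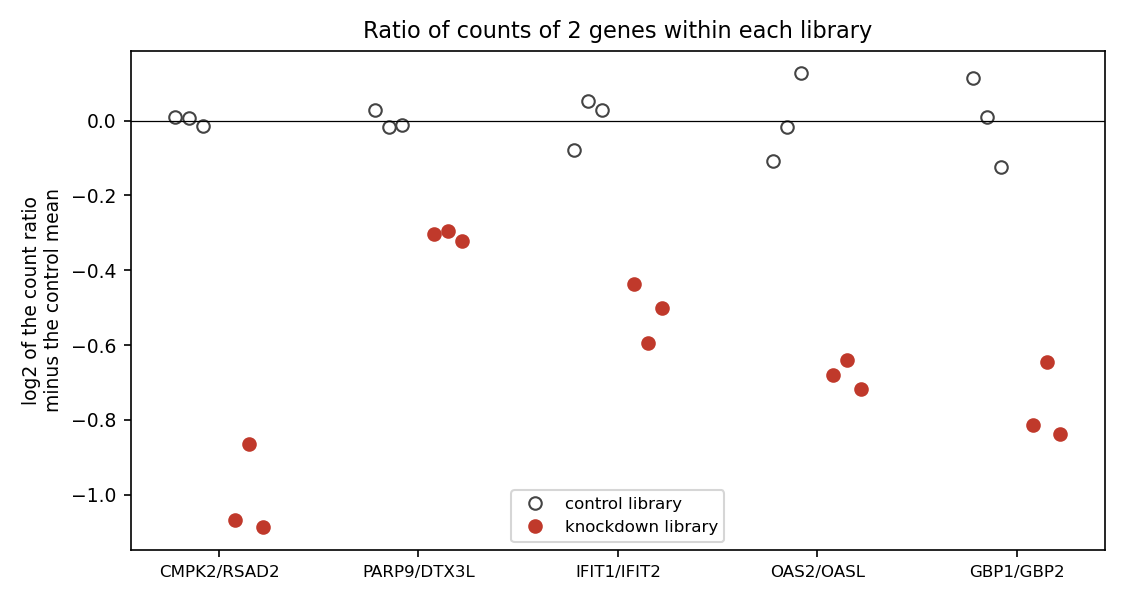
Ratio of the counts of 2 genes within each library, as log2 minus the mean of the controls (y axis), for 5 pairs of genes (x axis); open points are controls and filled points are knockdown libraries. All filled points lie below the open points of the same pair, furthest for CMPK2 over RSAD2 at a mean difference of -1.01. The pairs were chosen after their values were seen.

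The rest of the interferon pathway was read from 96 further genes in 5 lists, chosen with earlier results of these data known. Interferon genes themselves were barely counted: of 10, IFNE alone had enough counts to be tested and did not pass (0.28, SE 0.329), IFNB1 had 11 counts in all 6 libraries, and IFNA2, IFNK and IFNG had 0. Of 9 tested receptors, Janus kinases and STAT3 together 4 fell, 1 rose and 4 did not pass (median log2 fold change -0.15), which is 44.4% lower and 11.1% higher beside 13.4% and 14% of all tested genes. IFNAR1 fell from 113, 115 and 126 to 94.1, 95 and 90.3 CPM and IFNGR2 from 46.3, 42.8 and 46.9 to 32, 34.9 and 29.98 CPM, while TYK2 and STAT3 fell by 1.11-fold and 1.24-fold. IFNGR1, the 1 that rose (0.16, edgeR adjusted p = 0.0446), did not pass with DESeq2 (adjusted p = 0.0779) or in 5 of the 6 fits that leave out 1 library (all but the one without control 3), and TYK2 also lost its call in 5 of those 6 (all but the one without control 3).

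SOCS1 stood out among the regulators that hold the signal back. Of 12 tested, 5 rose, 1 fell and 6 did not pass, with a median log2 fold change of 0.02. The shares were 41.7% higher and 8.33% lower, beside 14% and 13.4% of all tested genes. SOCS1, which blocks the Janus kinases, went from 14.3, 14.7 and 13.8 to 30.1, 29.7 and 30.02 CPM, 2.1-fold higher (log2 fold change 1.07, SE 0.0792, edgeR adjusted p = 3.18e-08). The phosphatases PTPN1 and PTPN11 were 1.24-fold and 1.17-fold higher. PIAS1 (0.32) and CISH (0.48) also rose, and SOCS3 fell (-0.22). CISH lost its call without control 3, knockdown 2 or knockdown 3 (edgeR adjusted p = 0.08, 0.0709 and 0.0568), and SOCS3 without knockdown 2 or 3 (edgeR adjusted p = 0.0564 and 0.053).

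Of 15 tested sensors and adaptors 4 fell, 0 rose and 11 did not pass (median -0.11). The shares were 26.7% lower and 0% higher, beside 13.4% and 14% of all tested genes. In either direction the 26.7% called is close to the 27.4% of all tested genes. DHX58, the RIGI-like protein LGP2 and itself interferon-stimulated, went from 58.7, 59 and 55.2 to 39, 39 and 37.9 CPM, 1.49-fold lower. SAMHD1, which depletes nucleotides, fell 1.23-fold, and TLR3 (-0.24) and MYD88 (-0.30) fell as well. The adaptor MAVS (-0.11) and the factor IRF3 (-0.09), which stand between RNA sensing and interferon production and were named after their values were seen, did not pass. Without control 2 MAVS passed as lower (-0.14, edgeR adjusted p = 0.0294). TLR3 lost its call without control 3 or knockdown 2 (edgeR adjusted p = 0.0504 and 0.0753), and MYD88 without control 1, knockdown 1 or knockdown 3 (edgeR adjusted p = 0.112, 0.0504 and 0.0597).

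**Figure D5:**
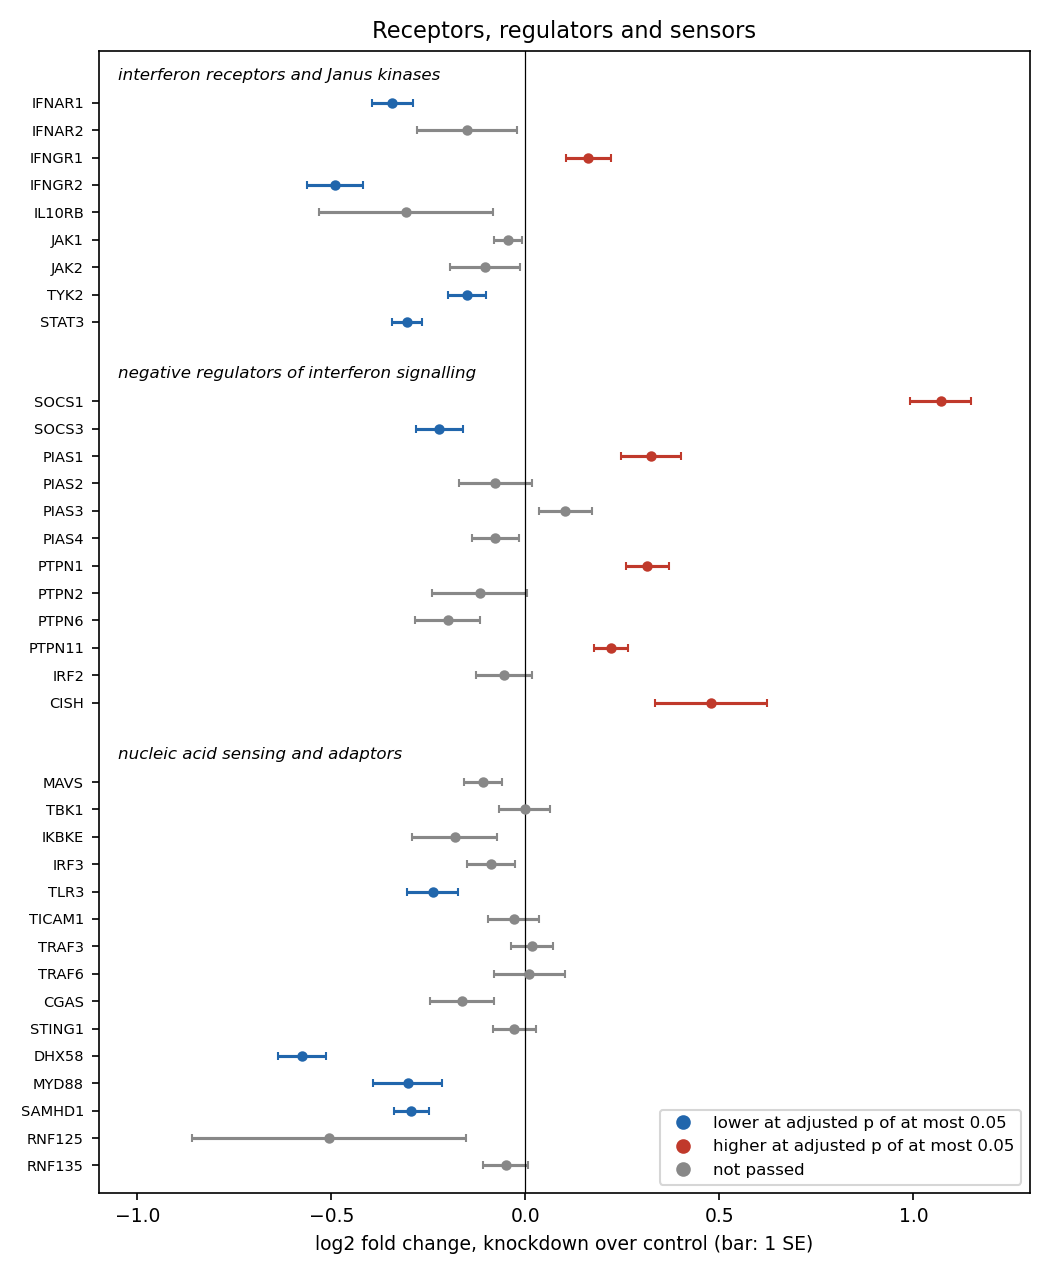
Log2 fold change with 1 SE (x axis) of the tested receptors, Janus kinases and STAT3, negative regulators, and sensors and adaptors (y axis), coloured by the test's call. SOCS1 stands alone at 1.07, and IFNGR2 and DHX58 lie lowest among the genes that passed, at -0.49 and -0.58.

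A further list of 44 interferon-stimulated genes outside the 52 members was counted in the same way. Of 37 tested, 20 fell, 0 rose and 17 did not pass, with a median log2 fold change of -0.22. The 54.1% that fell and the 0% that rose stand beside 13.4% and 14% of all tested genes. This list, like the members, was chosen with earlier results of these data known, so its share is not independent of theirs. HELZ2, a helicase and transcriptional coactivator, went from 368, 401 and 359 to 205, 205 and 213 CPM, 1.81-fold lower (edgeR adjusted p = 6.14e-10). GBP4 fell 1.91-fold, from 19.4, 16.8 and 20.4 to 10.6, 8.39 and 10.7 CPM, and the peptidase LAP3 from 187, 198 and 173 to 126, 125 and 131 CPM. Genes of the list that did not pass, named after their values were seen, include RNF213 (0.04, which passed as higher at 0.09 without both libraries numbered 2), ZC3HAV1 (0.01) and WARS1 (0.04).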

How the data were processed

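The authors deposited counts of read pairs per gene, not normalized. Per the file headers they come from featureCounts 2.0.1 in paired mode over exons of Ensembl release 107 (GRCh38), with no strand option and no option for multiply placed or multiply assigned pairs. Alignments are named hisat, with a version not given in the sources used here. Per the labels' protocols, libraries were directional.

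A name table gave symbols for 61757 of 61860 genes and GENCODE 29 for 101; positions, exon lengths and overlaps are those of GENCODE 29. Genes passing filterByExpr (15476, holding 99.82% of counts) were scaled by TMM and tested, 2-sided, with edgeR 4.0.16 in R 4.3.3 (glmQLFit, glmQLFTest), without a replicate block. CPM divide by the total of all counts times the TMM factor. Simulated counts for this comparison covered 15270 genes. Of 50 genes each changed 1.25-, 1.5-, 2- and 4-fold, 38%, 88%, 92% and 100% were recovered, with 12 false calls. The simulation gave all genes a common spread and drew the changed genes at many levels, so these shares are not those for the members. Alternatives used DESeq2 1.42.0 and limma 3.58.1 (voom), other scalings and filters, and left-out libraries. The 52 members and the lists were chosen with earlier results of these data known. All members could be named; of the other lists, genes that passed or were best counted. Some genes of these pathways are not reported here.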

Additional observations from a re-analysis of the deposited data

How the results depend on the processing

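Of the 37 members called, 31 were called under all 14 alternatives; EIF2AK2, ISG20, MX2, SP100, TRIM25 and UBE2L6 lost the call under at least 1, and IFITM3 and IFI27 gained one. No called member changed direction. The number of members called lower was 36 with RLE or upper-quartile scaling, without a filter, with DESeq2 and with limma-voom, 35 among genes of at least 5 CPM, and 32 to 37 when 1 library was left out. The number called higher was 0 to 1 with 1 library left out, and 2 without both libraries numbered 2, a setting chosen after seeing the data. Of the other pathway genes, 29 were called lower and 6 higher, against 21 to 30 and 4 to 5 with 1 library left out; 12 of them lost a call under at least 1 alternative, and MAVS, PTPN6, RNF125, RNF213 and SHFL gained one. With the replicate number as a block, 36 members were called lower and 1 higher, and 27 other genes lower and 5 higher; no member's call changed, while IFNGR1, GBP5 and PHF11 lost theirs. Deviations of same-numbered libraries correlated at 0.0204, 0.0444 and 0.00515. Controls 1 and 2 correlated best with their own number, and control 3 with knockdown 1 (0.012). The labels do not say that equal numbers mark a shared culture or day, so the numbers were not taken to pair the libraries. Members with 552 counts or fewer in all (IRF7, IRF9, RIGI, MX2, IFITM2 and CXCL10) have standard errors of 0.188 to 0.39 on the log2 scale, which limits what could be detected for them.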
